A study of Rattus norvegicus with 16 samples.

Results

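The 8 genes described here encode receptors of neurotrophins and of the GDNF family of ligands, and they were taken by name (Ngfr, Ntrk2, Ntrk3, Sort1, Gfra1, Gfra2, Gfra3 and Ret) from the 31038 genes of the deposited tables. Their levels were followed in 16 RNA libraries of the rat sciatic nerve. Purified Schwann cells and whole nerve were each profiled uncrushed and at days 3, 5 and 7 after crush, with 2 libraries per group. The labels give postnatal day 18 as the age of every sample. Rats of the injured groups had the left sciatic nerve crushed at mid-thigh at that age, under isoflurane and with carprofen for analgesia, and the nerve distal to the crush was collected 3, 5 or 7 days later. The uncrushed groups had no sham operation, so that effects of the crush cannot be told apart from those of surgery, anaesthesia, analgesia or age. Schwann cells were dissociated from the nerve, depleted of cells that bind antibodies against CD45 and Thy1, and selected by the antibody O4, which marks the Schwann cell lineage. Whole nerve was not dissociated. At least 10 nerves were pooled for each sample of purified cells, and the labels do not say whether the replicates of a group came from separate litters or days, so the p-values measure the spread between these pools, which may in part be technical.

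Neurotrophins bind a shared receptor, p75NTR, the product of Ngfr, and the receptor tyrosine kinases of the Trk family, of which TrkB (Ntrk2) binds BDNF and neurotrophin 4 and TrkC (Ntrk3) binds neurotrophin 3. Sortilin (Sort1) is a sorting receptor that can pair with p75NTR to bind the uncleaved precursors of neurotrophins. GDNF, neurturin and artemin bind the GPI-anchored receptors GFRα1, GFRα2 and GFRα3 (Gfra1, Gfra2 and Gfra3), which signal through the kinase Ret or, for GDNF and GFRα1, through the adhesion molecule NCAM. In the nerve, p75NTR is known as a marker of immature, non-myelinating and injured Schwann cells.

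Levels are given as scaled FPKM, which is the FPKM that the authors deposited (read fragments normalised by RSEM for transcript length and library depth) divided by the TMM factor of the library in a fit of all 16 libraries. Fold changes within a tissue used the TMM factors of its own 8 libraries, which differed slightly (0.811 and 0.820 for replicate 1 of uncrushed whole nerve), so that a fold change near 0 can differ in sign from the levels beside it. Fold changes and p-values come from edgeR's quasi-likelihood test on the rounded expected counts, and a gene was called at an adjusted p below 0.05 (Benjamini-Hochberg, over all genes tested). Expected counts summed to between 10555067 and 27562637 per library. The 8 Schwann cell markers summed to 16804 to 17822 scaled FPKM in uncrushed Schwann cells and 3402 to 8881 after crush, and none of them was at 0. The 6 macrophage markers summed to 2.42 to 12.6 scaled FPKM in the 8 Schwann cell libraries, highest in replicate 2 of day 3, against 145 to 162 in uncrushed and 310 to 521 in crushed whole nerve, where all 6 were called higher at day 3. The Schwann cell markers summed to 42432 to 52308 in uncrushed and 2128 to 6750 in crushed whole nerve. The part of these shifts in the whole nerve changes of the receptors, and in their differences from Schwann cells, was not tested. Of the macrophage markers Ptprc, which encodes CD45, was higher at day 3 in Schwann cells (log2 fold change 2.76, adjusted p = 0.0186, edgeR). In bulk RNA, fewer cells of a type and less RNA per cell cannot be told apart.

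In Schwann cells the family split after crush. Ngfr, Gfra1 and Sort1 rose at all 3 days, and Gfra2, Ntrk2 and Ntrk3 fell at all 3 days. Gfra3 fell at days 3 and 5. Ret had at most 5 counts in any Schwann cell library and could not be tested there. Thus 3 genes were higher and 4 lower at day 3, with 52.5% of all genes tested called in either direction, and the same 3 higher and 4 lower at day 5, with 54.6% of all genes called. With the day 3 library of highest macrophage sum left out, the count at day 3 was again 7. At day 7, 3 were higher and 3 lower, with 46.9% of all genes called. The median log2 fold change of the 7 tested receptors was −1.91, −1.62 and −0.50 at days 3, 5 and 7, beside 0.00335, 0.0581 and 0.0611 over all genes tested.

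**Figure D1:**
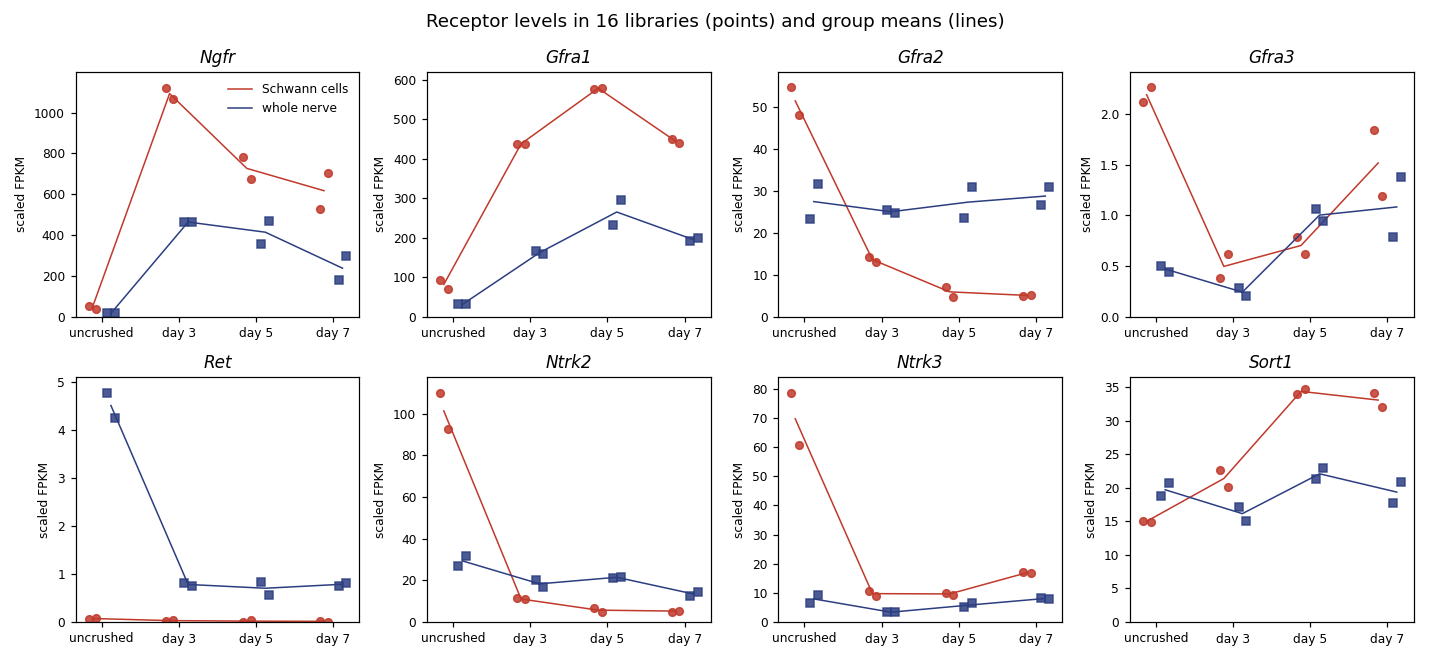
Level of each of the 8 receptor genes (scaled FPKM, linear axis from 0) before crush and at days 3, 5 and 7. Circles are Schwann cell libraries, squares are whole nerve libraries (2 per group) and lines join the group means. Ngfr and Gfra1 rose in both tissues, whereas Gfra2, Ntrk2 and Ntrk3 fell steeply in Schwann cells and fell less or were not called in whole nerve.

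p75NTR, which binds all neurotrophins, showed the steepest rise. Ngfr stood at 52.1 and 38.1 scaled FPKM in the 2 libraries of uncrushed Schwann cells, at 1121 and 1065 at day 3, at 781 and 672 at day 5 and at 529 and 705 at day 7. All 6 libraries of crushed nerves lay above both uncrushed libraries. The rise was 24.8-fold at day 3 (log2 fold change 4.63, SE 0.198, adjusted p = 1.26e-07, edgeR), 16.3-fold at day 5 (log2 fold change 4.03, SE 0.193) and 13.9-fold at day 7 (log2 fold change 3.79, SE 0.191). The level was highest at day 3 and was lower at day 7 than at day 3, by 0.84 on the log2 scale (log2 fold change −0.84, adjusted p = 0.00745, edgeR). Without replicate 1 of day 7 that call was lost (−0.64, adjusted p = 0.0623, edgeR).

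Whole nerve showed the same course of Ngfr at lower levels. The 2 uncrushed libraries had 15.4 and 16.2 scaled FPKM, those of day 3 461 and 465, those of day 5 356 and 471 and those of day 7 178 and 296. The uncrushed and crushed libraries did not overlap. The log2 fold changes were 4.81 (SE 0.240, adjusted p = 1.29e-07, edgeR), 4.61 (SE 0.238) and 3.82 (SE 0.230) at days 3, 5 and 7. The order of the 8 group means ran from Schwann cells at day 3 down through days 5 and 7, the whole nerve at days 3, 5 and 7, and uncrushed Schwann cells to uncrushed whole nerve. Within that order, the values of Schwann cells at days 5 and 7 overlapped, as did those of whole nerve at days 3 and 5.

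Sortilin, the partner of p75NTR for precursor neurotrophins, rose later and less. Sort1 stood at 15.0 and 14.9 scaled FPKM in uncrushed Schwann cells, at 22.7 and 20.03 at day 3, at 33.9 and 34.8 at day 5 and at 34.1 and 32.0 at day 7. All crushed libraries were above the uncrushed ones, and those of days 5 and 7 overlapped each other. The log2 fold changes were 0.55 (SE 0.0958, adjusted p = 0.000946, edgeR), 1.23 (SE 0.0965, adjusted p = 5.82e-06) and 1.17 (SE 0.0965, adjusted p = 1.17e-05). Between days 3 and 5 the level rose by a further 0.68 on the log2 scale (adjusted p = 0.00263, edgeR).

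In whole nerve Sort1 changed little. Its levels were 18.7 and 20.7 scaled FPKM uncrushed, 17.2 and 15.1 at day 3, then 21.2 and 22.9 at day 5 and 17.8 and 20.9 at day 7. The fall at day 3 was called (log2 fold change −0.35, SE 0.110, adjusted p = 0.0264, edgeR), and the call was lost when all 16 libraries entered the fit (adjusted p = 0.0505, edgeR) and without replicate 2 of the uncrushed nerves (adjusted p = 0.145) or of day 3 (adjusted p = 0.202). The values at days 5 and 7 were 0.07 (adjusted p = 0.657, edgeR) and −0.12 (adjusted p = 0.470), and neither was called.

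TrkB, the kinase receptor of BDNF, had the largest fall in Schwann cells. Ntrk2 stood at 110.01 and 92.6 scaled FPKM in uncrushed Schwann cells, at 11.2 and 10.7 at day 3, at 6.47 and 4.73 at day 5 and at 4.93 and 5.37 at day 7. No crushed library came near the uncrushed ones, and days 5 and 7 overlapped. Ntrk2 was 9.03-fold lower at day 3 (log2 fold change −3.17, SE 0.157, adjusted p = 2.76e-07, edgeR), 17.8-fold lower at day 5 (log2 fold change −4.15, SE 0.166) and 19.4-fold lower at day 7 (log2 fold change −4.28, SE 0.167). The gene-level value does not separate the full-length kinase from truncated forms of TrkB.

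In whole nerve Ntrk2 fell less. Its levels were 26.7 and 31.9 scaled FPKM uncrushed, 19.95 and 16.5 at day 3, then 21.1 and 21.8 at day 5 and 12.4 and 14.2 at day 7. All crushed libraries were below the uncrushed ones. The log2 fold changes were −0.75 (SE 0.121, adjusted p = 0.000566, edgeR), −0.55 (SE 0.121, adjusted p = 0.00503) and −1.23 (SE 0.123, adjusted p = 3.64e-05), and the level at day 7 was lower than at day 5 (log2 fold change −0.68, adjusted p = 0.00956, edgeR), a call lost without replicate 2 of day 5 (adjusted p = 0.0724) or replicate 1 of day 7 (adjusted p = 0.0683).

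TrkC, the receptor of neurotrophin 3, fell and then rose in part. Ntrk3 stood at 78.7 and 60.9 scaled FPKM in uncrushed Schwann cells, at 10.6 and 8.78 at day 3, at 9.84 and 9.32 at day 5 and at 17.0 and 16.8 at day 7. The libraries of day 7 lay above those of days 3 and 5 and far below the uncrushed ones. The log2 fold changes against uncrushed were −2.90 (SE 0.142, adjusted p = 2.68e-07, edgeR), −2.87 (SE 0.142) and −2.05 (SE 0.137). From day 5 to day 7 Ntrk3 rose by 0.82 on the log2 scale (adjusted p = 0.0227, edgeR), and with any 1 of those 4 libraries left out the rise kept its direction and missed the threshold (0.80 to 0.85, adjusted p = 0.0834 to 0.165).

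Whole nerve held less Ntrk3 than Schwann cells in every pair of groups. Its levels were 6.37 and 9.39 scaled FPKM uncrushed, 3.27 and 3.34 at day 3, then 5.08 and 6.36 at day 5 and 8.060 and 7.999 at day 7. The values of day 7 lay between the 2 uncrushed ones. Ntrk3 was lower at day 3 (log2 fold change −1.32, SE 0.186, adjusted p = 0.000232, edgeR) and at day 5 (−0.57, SE 0.182, adjusted p = 0.0317), and at day 7 the difference was −0.03 (adjusted p = 0.922, edgeR), or 0.067 with all 16 libraries in the fit. The call at day 5 was lost in a fit of only the 4 libraries compared (adjusted p = 0.0636) and in 4 of the 8 fits that left out 1 library, and without replicate 2 of the uncrushed nerves it was −0.28 (adjusted p = 0.270).

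GFRα1, the receptor of GDNF, rose in both tissues. Gfra1 stood at 92.6 and 70.2 scaled FPKM in uncrushed Schwann cells, at 438 and 437 at day 3, at 577 and 581 at day 5 and at 451 and 439 at day 7. All crushed libraries were above the uncrushed ones, and day 5 was above the other 2 days. The rise was 4.74-fold at day 3 (log2 fold change 2.25, SE 0.121, adjusted p = 4.37e-07, edgeR), 6.60-fold at day 5 (log2 fold change 2.72, SE 0.123) and 5.39-fold at day 7 (log2 fold change 2.43, SE 0.122). The step from day 3 to day 5 was called (0.48, adjusted p = 0.0270, edgeR), and was lost with any 1 of those 4 libraries left out (adjusted p = 0.109 to 0.158).

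In whole nerve Gfra1 took the same course. Its levels were 30.6 and 30.7 scaled FPKM uncrushed, 166 and 158 at day 3, then 233 and 297 at day 5 and 191 and 198 at day 7. The log2 fold changes were 2.08 (SE 0.113, adjusted p = 2.35e-07, edgeR), 2.90 (SE 0.116) and 2.53 (SE 0.115). Day 5 was again the highest, above day 3 by 0.82 on the log2 scale (adjusted p = 0.00161, edgeR). The step from day 5 to day 7 was −0.37 (adjusted p = 0.0668, edgeR), which was called with the replicate number as a block (adjusted p = 0.0409), by DESeq2 (0.00795), without the filter on low counts (0.00402) and without replicate 1 of day 5 (0.0437).

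The promoters of Gfra1 and Sort1 are shown because these 2 genes rose together in Schwann cells at all 3 days. RefSeq promoter sequences (assembly GRCr8) were at hand for 4 of the 8 genes, Gfra1, Gfra3, Ret and Sort1. Each line holds the 250 bases upstream of the transcription start that the table uses, 5′ to 3′ on the strand of the gene, chr1:267555812-267556061 on the minus strand for Gfra1 and chr2:198612245-198612494 on the plus strand for Sort1, with the GC box GGGCGG (or CCGCCC on the other strand) in capitals. Both windows lie inside the RefSeq gene record, which begins further upstream, so that they precede the start of 1 of several transcripts and not the first start of the gene.
Gfra1: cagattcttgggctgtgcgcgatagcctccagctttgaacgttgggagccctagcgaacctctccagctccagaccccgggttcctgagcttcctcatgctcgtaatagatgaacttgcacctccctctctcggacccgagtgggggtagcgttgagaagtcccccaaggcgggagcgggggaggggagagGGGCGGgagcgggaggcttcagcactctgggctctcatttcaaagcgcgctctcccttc
Sort1: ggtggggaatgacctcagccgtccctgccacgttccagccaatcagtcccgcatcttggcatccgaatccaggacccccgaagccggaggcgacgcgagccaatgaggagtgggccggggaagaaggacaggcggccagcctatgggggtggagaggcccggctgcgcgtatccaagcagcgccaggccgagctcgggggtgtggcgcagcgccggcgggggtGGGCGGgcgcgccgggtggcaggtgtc
The Gfra1 stretch has a GC content of 62.0% with 15 CpG dinucleotides and the Sort1 stretch 71.6% with 25, beside medians of 51.2% and 5 over all promoters of the table. Each of them holds 1 GC box, which 30.5% of the 33469 promoters of the same length hold. The letters TGANTCA of an AP-1 site, searched on both strands, were not found in either window or in those of Gfra3 and Ret, and 6.34% of all promoters hold them.

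GFRα2, the receptor of neurturin, moved against GFRα1 in Schwann cells. Gfra2 stood at 54.7 and 48.1 scaled FPKM in uncrushed Schwann cells, at 14.1 and 13.01 at day 3, at 7.04 and 4.73 at day 5 and at 4.90 and 5.19 at day 7. All crushed libraries were below the uncrushed ones, and days 5 and 7 were below day 3. Gfra2 was 3.75-fold lower at day 3 (log2 fold change −1.91, SE 0.157, adjusted p = 6.99e-06, edgeR), 8.52-fold lower at day 5 (log2 fold change −3.09, SE 0.168) and 9.99-fold lower at day 7 (log2 fold change −3.32, SE 0.172). In whole nerve the levels were 23.2 and 31.6 scaled FPKM uncrushed, 25.3 and 24.7 at day 3, then 23.5 and 31.0 at day 5 and 26.6 and 30.8 at day 7. The groups overlapped and no day was called, with log2 fold changes of −0.20, −0.11 and −0.03 (adjusted p = 0.330, 0.642 and 0.898, edgeR), of which the value at day 7 was 0.015 under upper quartile normalization and 0.058 with all 16 libraries in the fit.

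GFRα3, the receptor of artemin, was low throughout. Gfra3 stood at 2.11 and 2.26 scaled FPKM in uncrushed Schwann cells (57 and 53 counts), at 0.376 and 0.613 at day 3 (11 and 31 counts), at 0.781 and 0.622 at day 5 and at 1.84 and 1.19 at day 7. It was lowest at day 3, and all crushed libraries were below the uncrushed ones. The log2 fold changes were −2.08 (SE 0.384, adjusted p = 0.00142, edgeR), −1.62 (SE 0.376, adjusted p = 0.00509) and −0.50 (SE 0.357, adjusted p = 0.276), the last not called. From day 3 to day 7 Gfra3 rose by 1.58 on the log2 scale (adjusted p = 0.0175, edgeR), a call lost without replicate 1 of day 3 (adjusted p = 0.0944) or of day 7 (adjusted p = 0.143).

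In whole nerve Gfra3 had 7 to 35 counts per library. Its levels were 0.5002 and 0.438 scaled FPKM uncrushed, 0.283 and 0.199 at day 3, then 1.06 and 0.944 at day 5 and 0.789 and 1.37 at day 7. None of the 3 days was called against uncrushed nerve (log2 fold changes −1.02, 0.98 and 1.09, adjusted p = 0.136, 0.127 and 0.106, edgeR). Day 5 was above day 3 by 2.00 on the log2 scale (adjusted p = 0.0221, edgeR), and with any 1 of those 4 libraries left out the adjusted p was 0.0926 to 0.164.

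Ret, the kinase through which the GFRα receptors signal, was barely detected in purified Schwann cells. It had 5 and 4 counts in the uncrushed libraries, 1 and 4 at day 3, then 0 and 3 at day 5 and 1 and 0 at day 7. These counts are at or near the floor of 3, so no fold change between Schwann cell groups is given. In whole nerve Ret stood at 4.77 and 4.26 scaled FPKM uncrushed (301 and 168 counts), at 0.819 and 0.740 at day 3, at 0.840 and 0.561 at day 5 and at 0.750 and 0.818 at day 7. The uncrushed libraries were above all crushed ones, and the 3 days overlapped. Ret was 5.95-fold lower at day 3 (log2 fold change −2.57, SE 0.224, adjusted p = 7.20e-06, edgeR), 7.13-fold lower at day 5 (log2 fold change −2.83, SE 0.231) and 6.25-fold lower at day 7 (log2 fold change −2.64, SE 0.231). The 3 skeletal muscle markers summed to 18.9 to 336 scaled FPKM in the 2 uncrushed whole nerve libraries and 0.994 to 28.4 in the crushed ones, while Ret itself stood at 4.77 and 4.26 in those 2 uncrushed libraries. The part of muscle in the fall of Ret was not tested.

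Of the 8 receptors in whole nerve, 2 were higher and 4 lower at day 3, with 45.6% of all genes called, 2 higher and 3 lower at day 5, with 38.4% of all genes called, and 2 higher and 2 lower at day 7, with 31.3% called. The higher ones were Ngfr and Gfra1 at each day. The median log2 fold change of the 8 was −0.55, −0.02 and −0.03, beside 0.00295, −0.00862 and 0.0163 over all genes tested.

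**Figure D2:**
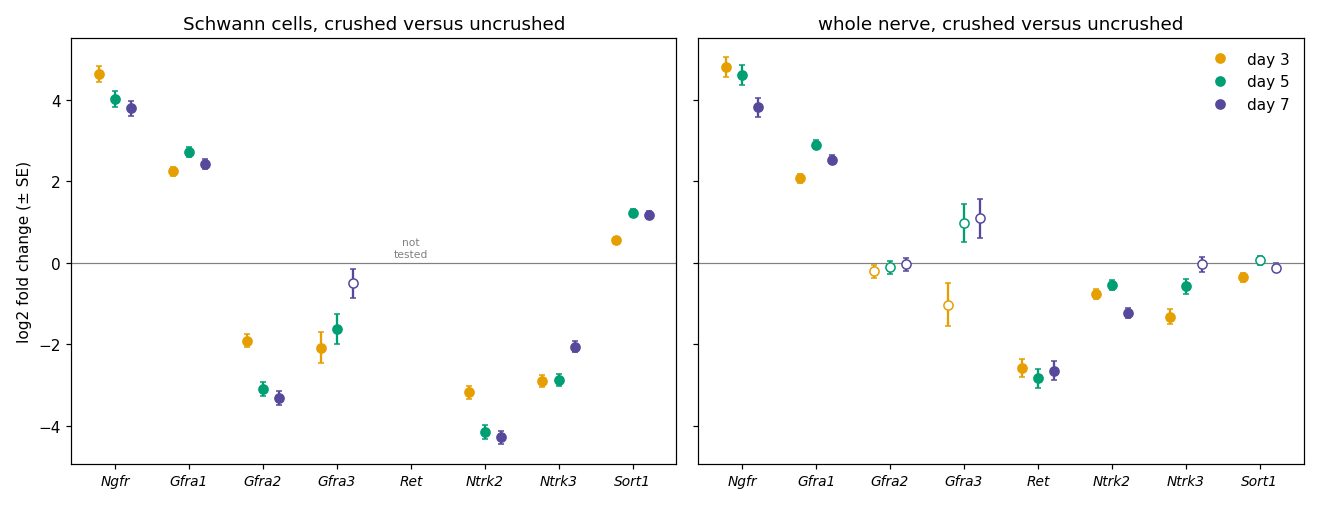
Log2 fold change against uncrushed samples (vertical axis, points with bars of 1 SE, edgeR) of each receptor at days 3, 5 and 7, in Schwann cells (left) and whole nerve (right). Filled points were called at an adjusted p below 0.05 and open points were not. Ret was not tested in Schwann cells. Ngfr and Gfra1 were above 0 in both tissues at each day, and Gfra2 lay between −3.32 and −1.91 in Schwann cells and between −0.20 and −0.03 in whole nerve.

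Markers of other cells were read beside these changes. The 6 fibroblast markers summed to 1308 to 1332 scaled FPKM in uncrushed Schwann cells and 184 to 329 after crush, against 6783 to 8874 in whole nerve. At day 3 in Schwann cells Col3a1, which encodes a fibrillar collagen, was lower by a log2 fold change of −5.12 and Col1a1 by −0.67, Fn1 was higher by 1.74, and Pdgfra, Dcn and Lum were not called (0.10, 0.09 and −0.16). The part of these cells in the falls of Gfra2, Ntrk2 and Ntrk3 was not tested. The 5 neuronal markers summed to 24.7 to 42.5 scaled FPKM in uncrushed and 114 to 266 in crushed Schwann cells. Only the neurofilament genes Nefl and Nefm of that list had enough counts to test, and both were higher at all 3 days. Their part in the rises of Ngfr, Gfra1 and Sort1 was not tested. The 4 pericyte and smooth muscle markers summed to 37.9 to 48.6 before and 7.73 to 17.5 after crush in Schwann cells. The sums of the endothelial markers (0.218 to 3.41), the perineurial markers (11.9 to 19.97) and the satellite glial markers (0.337 to 2.61) in Schwann cells were below those in whole nerve (79.3 to 96.7, 138 to 238 and 36.0 to 70.2).

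The make-up of the GFRα receptors within a library changed with crush. Of the summed level of the 3 genes, Gfra1 held 62.0% and 58.2% in the 2 libraries of uncrushed Schwann cells and 96.8% to 99.1% in the 6 crushed ones. Gfra2 held 36.6% and 39.9% before crush and 0.807% to 3.12% after it. In whole nerve the share of Gfra1 went from 56.4% and 48.9% to between 86.0% and 90.5%. In neither tissue did the shares of crushed and uncrushed libraries overlap.

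The balance between p75NTR and the Trk receptors shifted further. The level of Ngfr divided by the summed level of Ntrk2 and Ntrk3 was 0.276 and 0.248 in uncrushed Schwann cells, 51.4 and 54.6 at day 3, 47.8 in both libraries of day 5 and 24.2 and 31.8 at day 7. In whole nerve it went from 0.465 and 0.393 to 19.9 and 23.4 at day 3, then 13.6 and 16.7 at day 5 and 8.69 and 13.3 at day 7. The ratio was below 1 in every uncrushed library and above 1 in every crushed one. The ratio of Ntrk2 to Ntrk3 fell in Schwann cells from 1.40 and 1.52 to 0.290 and 0.320 at day 7, and in whole nerve it was 4.19 and 3.39 uncrushed, 6.11 and 4.94 at day 3, 4.14 and 3.42 on day 5 and 1.54 and 1.77 at day 7. These ratios rest on the same values as the levels above and were not tested on their own.

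**Figure D3:**
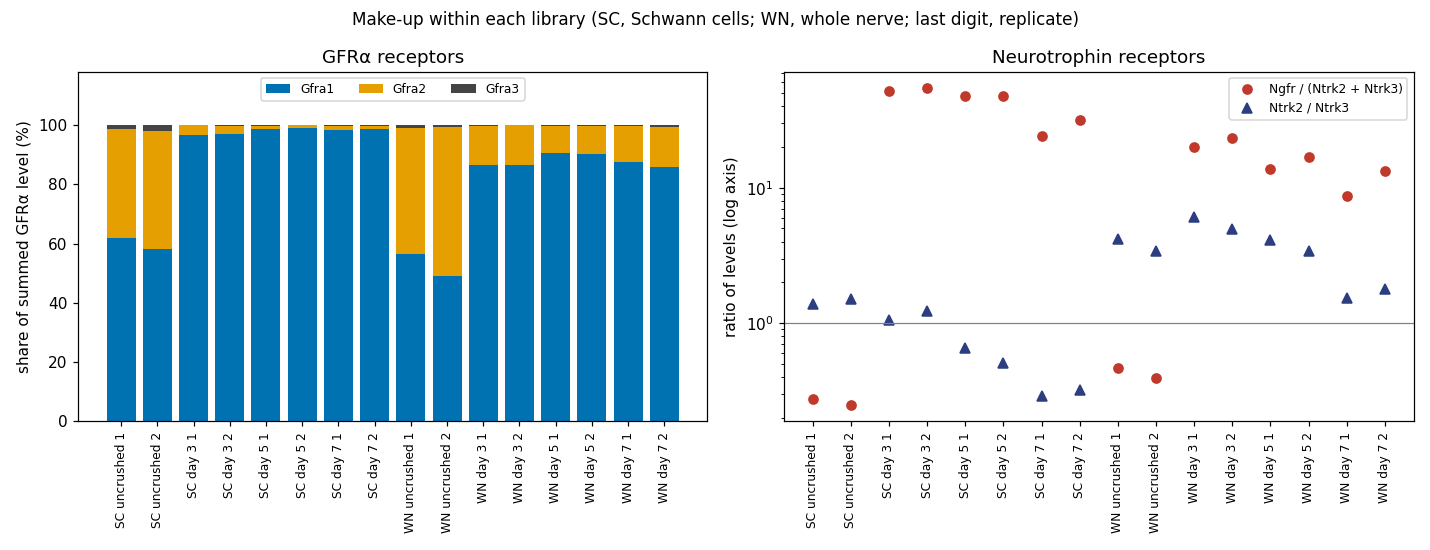
Left, share of Gfra1, Gfra2 and Gfra3 in their summed level (stacked bars, %) in each of the 16 libraries. Right, level of Ngfr divided by that of Ntrk2 plus Ntrk3 (circles) and of Ntrk2 divided by Ntrk3 (triangles), on a log axis with a line at 1. Gfra1 held 48.9% to 62.0% in uncrushed libraries and 86.0% to 99.1% in crushed ones.

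RSEM also gives, for each gene, the mean length of its transcripts weighted by their estimated abundance, which moves when the mix of isoforms moves. For Gfra1 this length was 5918 and 6137 bases in uncrushed Schwann cells, 5115 and 5307 at day 3, then 5542 and 5478 at day 5 and 5711 and 5983 at day 7. In whole nerve it was 5745 and 5797 uncrushed, 4851 and 4904 at day 3, then 5446 and 5280 at day 5 and 5427 and 5800 at day 7. In both tissues the 2 libraries of day 3 had the shortest means, and those of day 7 overlapped the uncrushed ones. For Ntrk3 in Schwann cells the length was 3614 and 3625 bases uncrushed and 3434 to 3601 after crush, lowest at day 3. The means of Ngfr and Ntrk2 stayed between 3226 and 3236 and between 6921 and 6934 bases. These lengths were not tested, the files used here do not give the isoforms, and RSEM's estimate depends on read coverage along the transcript, which the cDNA amplification could affect.

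**Figure D4:**
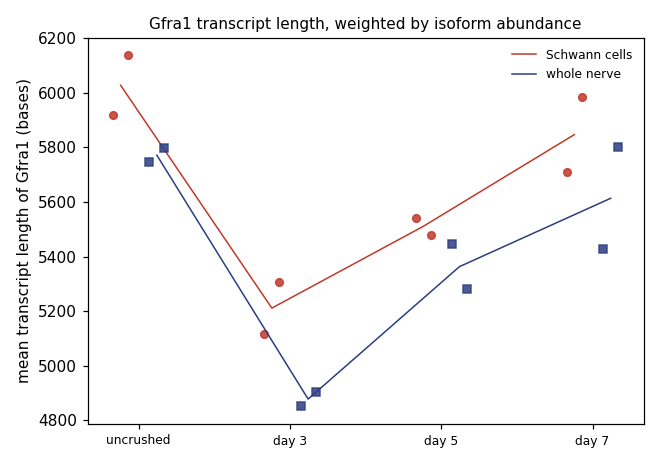
Abundance-weighted mean transcript length of Gfra1 in bases (vertical axis, not starting at 0) before crush and at days 3, 5 and 7. Circles are Schwann cell libraries, squares whole nerve libraries, and lines join group means. Within each tissue the 2 day 3 libraries were the lowest, at 5115 and 5307 bases in Schwann cells and 4851 and 4904 in whole nerve.

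The days after crush were also compared with each other. In Schwann cells from day 3 to day 5, Gfra1 and Sort1 were higher and Ngfr, Gfra2 and Ntrk2 lower, 5 of 7 with 12.5% of all genes called. The fall of Ngfr was near the threshold (log2 fold change −0.60, adjusted p = 0.0482, edgeR) and was lost under upper quartile normalization (adjusted p = 0.0537), in a fit of all 16 libraries (0.0812), with the replicate number as a block (0.0658) and with any 1 of the 4 libraries left out. Gfra2 and Ntrk2 had −1.18 and −0.98 (adjusted p = 0.00242 and 0.00411, edgeR). From day 5 to day 7 the rise of Ntrk3 was the 1 call of 7, with 1.95% of all genes called. From day 3 to day 7, Gfra3, Ntrk3 and Sort1 were higher and Ngfr, Gfra2 and Ntrk2 lower, 6 of 7 with 21.0% called.

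In whole nerve from day 3 to day 5, Gfra1, Gfra3, Ntrk3 and Sort1 were higher, 4 of 8 with 11.5% of all genes called. With any 1 of those 4 libraries left out Gfra1 was the 1 call that remained. From day 5 to day 7, Ngfr and Ntrk2 were lower, 2 of 8 with 7.40% called. Ngfr fell by 0.80 on the log2 scale (log2 fold change −0.80, adjusted p = 0.0412, edgeR), which DESeq2 did not call (adjusted p = 0.0650), nor did a fit of only the 4 libraries compared (0.0649). It was also lost without either library of day 3, either of day 5 or replicate 1 of day 7 (−0.99 to −0.49, adjusted p = 0.0600 to 0.246, edgeR). From day 3 to day 7, Gfra1, Gfra3 and Ntrk3 were higher and Ngfr and Ntrk2 lower, 5 of 8 with 21.2% called. Ntrk3 rose by 1.29 on the log2 scale (adjusted p = 0.000842, edgeR) and kept its call with any library left out, as did Ngfr (−0.99, adjusted p = 0.00642). The calls of Gfra1, Gfra3 and Ntrk2 were each lost without replicate 1 or 2 of day 3 (adjusted p = 0.0743 to 0.161) and without 1 library of day 7 (adjusted p = 0.0752 to 0.132).

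Purified Schwann cells were then compared with whole nerve of the same time point, which asks in which of the 2 preparations each receptor was richer. Before crush 6 receptors were higher in Schwann cells and 2 lower, with 64.4% of all genes called. Ntrk3 showed the largest excess, 9.11-fold (log2 fold change 3.19, SE 0.172, adjusted p = 1.61e-09, edgeR). Gfra3 had 2.20 (SE 0.418), Ntrk2 1.79 (SE 0.148), Ngfr 1.52 (SE 0.228), Gfra1 1.47 (SE 0.122) and Gfra2 0.93 (SE 0.172), all called. Ret was 63.3-fold lower in uncrushed Schwann cells (log2 fold change −5.98, SE 0.456, adjusted p = 4.85e-08, edgeR), on 5 and 4 counts against 301 and 168. Sort1 was lower by −0.39 (adjusted p = 0.00512, edgeR), a call lost without replicate 2 of uncrushed whole nerve (adjusted p = 0.0508).

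After crush the order changed for 3 receptors. At days 3, 5 and 7 Gfra2 was now lower in the purified cells (−0.88, −2.18 and −2.47 on the log2 scale), as was Ntrk2 (−0.73, −1.93 and −1.37), and Sort1 was now higher (0.40, 0.64 and 0.77). Each of these was called (largest adjusted p = 0.00472, edgeR, for Sort1 at day 3, a call lost without replicate 1 of Schwann cells or replicate 2 of whole nerve at that day, adjusted p = 0.0621 and 0.0684). Upper quartile normalization shifted the median of all genes toward Schwann cells by 0.135 at day 5 and 0.101 at day 7 on the log2 scale, and the calls of Gfra2, Ntrk2 and Sort1 held there. Ngfr, Gfra1 and Ntrk3 were higher in Schwann cells at each day, Ngfr by 1.23, 0.81 and 1.38, Gfra1 by 1.53, 1.17 and 1.25 and Ntrk3 by 1.499, 0.76 and 1.05. The call of Ngfr at day 5 was lost without replicate 1 of whole nerve at that day (adjusted p = 0.0760, edgeR). Ret was lower at each day and Gfra3 was not called at any (adjusted p = 0.0582, 0.279 and 0.290, edgeR), though upper quartile normalization called it at day 3 (adjusted p = 0.0397). Thus 4 receptors were higher and 3 lower at each day, with 57.3% of all genes called at day 3, 51.7% at day 5 and 51.0% at day 7.

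Whether crush changed a receptor by a different factor in Schwann cells than in whole nerve was tested as an interaction over all 16 libraries. Gfra2, Ntrk2 and Ntrk3 fell more in Schwann cells, and Sort1 rose more, at all 3 days. At day 3 these were the 4 calls, with 26.0% of all genes called. At day 5 Gfra3 joined them, which made 5 with 27.5% of all genes called, and at day 7 the same 5 were called, with 26.0%. The largest difference was that of Ntrk2 at day 5, −3.73 on the log2 scale (SE 0.213, adjusted p = 4.12e-08, edgeR), and for Gfra2 it was −1.81, −3.11 and −3.40 at days 3, 5 and 7. For Gfra3 at day 7 (−1.71, adjusted p = 0.0375, edgeR) the call was lost under DESeq2 (adjusted p = 0.0744) and without any 1 of 8 libraries, down to −1.25 (adjusted p = 0.177) without replicate 2 of whole nerve at day 7. For Ngfr and Gfra1 the difference was not called at any day (Ngfr −0.28, −0.71 and −0.14, adjusted p = 0.554, 0.109 and 0.793, and Gfra1 0.06, −0.30 and −0.22, adjusted p = 0.846, 0.211 and 0.373, edgeR). At day 5 Ngfr was called without the filter on low counts (−0.70, adjusted p = 0.000276) and without either library of whole nerve at day 7 (adjusted p = 0.0490 and 0.0489), and Gfra1 without replicate 2 of uncrushed Schwann cells (−0.47, adjusted p = 0.0367). Ret rested on counts at the floor in Schwann cells, and its difference was not called.

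The other receptors of these families behaved as follows. Of 9 further receptors and co-receptors, 5 had enough counts in Schwann cells. Sorcs2, a sortilin-related partner of p75NTR, stood at 5.18 and 4.91 scaled FPKM uncrushed and 24.3 and 24.6 at day 3, a log2 fold change of 2.31 (adjusted p = 2.12e-07, edgeR). Its relative Sorcs1 went from 90.6 and 82.2 to 20.4 and 20.5, a log2 fold change of −2.05 (adjusted p = 2.12e-07, edgeR), so that these 2 relatives moved in opposite directions. Ncam1, which encodes the adhesion molecule that also binds GDNF with GFRα1, went from 158 and 150 to 14.1 and 11.4, a log2 fold change of −3.58 (adjusted p = 7.77e-08, edgeR), and was at 43.2 and 38.6 at day 7.

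Thus at day 3 in Schwann cells 1 of these 5 was higher and 2 were lower, and at days 5 and 7 Gfra4 (1.81 and 2.25 on the log2 scale) joined the higher and Sdc3, a syndecan that binds GDNF ligands (−0.36 and −0.42), the lower ones, beside 52.5%, 54.6% and 46.9% of all genes called at the 3 days. The median log2 fold change of the 5 was −0.32 at day 3. Gfra4, the receptor of persephin, had at most 0.424 scaled FPKM in any library. In whole nerve at day 3, of 5 tested, Sorcs2 was higher (1.23) and Ncam1 (−1.99), Sorcs1 (−2.58) and Sdc3 (−0.55) were lower, while Sorl1 was not called (0.55), beside 45.6% of all genes called. Gfral and Sorcs3 had too few counts to test in either tissue.

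Of the ligands, Gdnf, Bdnf and Artn were tested in Schwann cells, and all 3 were higher at day 3, beside 52.5% of all genes called. Gdnf went from 3.15 and 1.60 scaled FPKM in uncrushed Schwann cells to 64.5 and 78.7 at day 3, then 40.8 and 50.1 at day 5 and 22.2 and 28.4 at day 7 (log2 fold change at day 3 4.89, adjusted p = 4.43e-07, edgeR). Bdnf, the ligand of TrkB, went from 0.251 and 0.130 to 1.55 and 2.83 at day 7 (log2 fold change 3.50, adjusted p = 0.000160, edgeR). Artn, which encodes artemin, had log2 fold changes of 1.26, 0.97 and 1.32, of which the second was not called (adjusted p = 0.0534, edgeR). In whole nerve Gdnf and Bdnf were higher at each day, beside 45.6%, 38.4% and 31.3% of all genes called, with Gdnf at 1 and 0 counts and Bdnf at 0 in both uncrushed libraries.

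**Figure D5:**
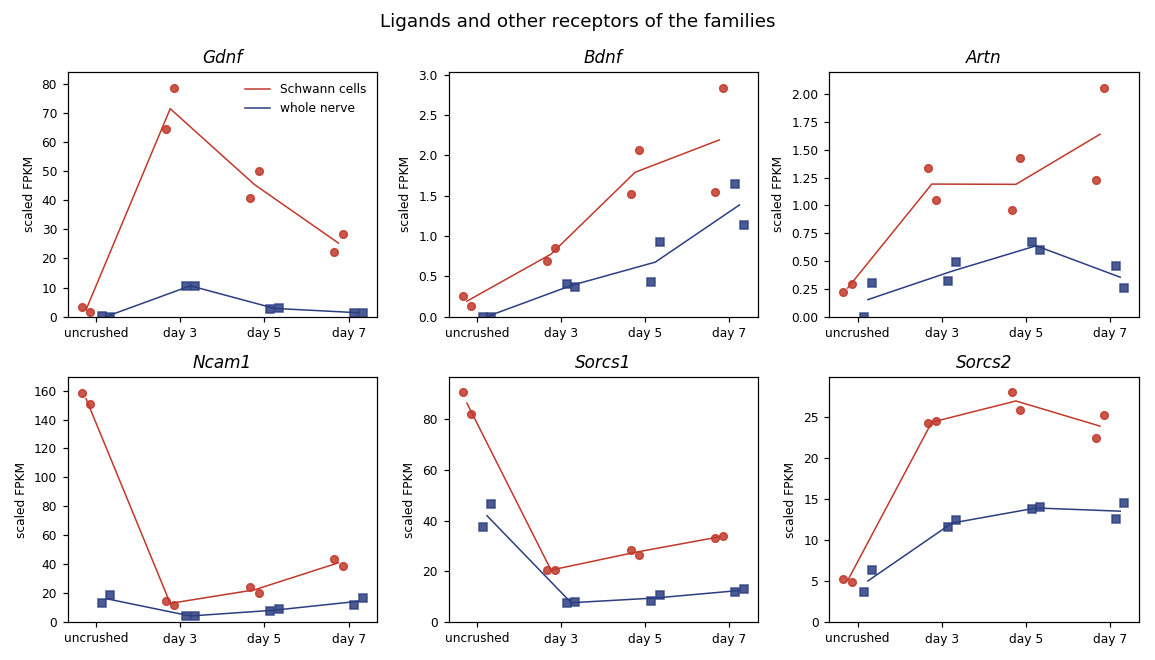
Level (scaled FPKM, linear axes from 0) of 3 ligands (Gdnf, Bdnf, Artn) and 3 further receptors (Ncam1, Sorcs1, Sorcs2) before crush and at days 3, 5 and 7. Circles are Schwann cell libraries, squares whole nerve libraries and lines group means. Gdnf in Schwann cells was highest at day 3, at 64.5 and 78.7, and Sorcs1 and Sorcs2 moved in opposite directions.

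Genes that act next to these receptors gave no single direction. Of 14 partners of p75NTR, 13 were tested in Schwann cells, and 6 were higher and 4 lower at day 3, then 5 and 3 at day 5 and 5 and 4 at day 7 (median log2 fold change at day 3 0.34), beside 52.5%, 54.6% and 46.9% of all genes called. Lingo1, a co-receptor of p75NTR in the Nogo receptor complex, had a log2 fold change of −1.90 at day 3 (adjusted p = 1.44e-05, edgeR) and −0.49 at day 7. Nradd, a relative of p75NTR, had 2.09 and Arhgdia, a GDP-dissociation inhibitor of small GTPases, 1.05 at day 3, while the zinc finger gene Zfp110 had −0.94, all called. Of the 8 genes of the proteases that cleave p75NTR, 7 were tested, and 3 were higher and 2 lower at day 3, then 2 and 1 at day 5 and 3 and 2 at day 7 (median at day 3 0.22), beside the same shares over all genes. Adam17, the sheddase of p75NTR, was lower at day 3 (−0.76, adjusted p = 0.000153, edgeR) and higher at day 7 (0.54, adjusted p = 0.00157). Of the γ-secretase genes, Aph1a (1.66) and Psenen (0.55) were higher and Psen2 (−0.53, adjusted p = 0.0400, edgeR) lower at day 3. In whole nerve at days 3, 5 and 7, 2, 0 and 2 of the 13 partners tested were higher and 3, 1 and 3 lower. Of the protease genes there, 2, 1 and 1 were higher and 2, 1 and 1 lower. The share of all genes called in whole nerve was 45.6%, 38.4% and 31.3% at these days.

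Of 23 adaptors and regulators of Trk and Ret kinase signaling, 22 were tested in Schwann cells, and 7 were higher and 4 lower at day 3, then 8 and 7 at day 5 and 5 and 3 at day 7 (median at day 3 0.22). Over all genes 52.5%, 54.6% and 46.9% were called at these days, and the median at day 3 was 0.00335. Gab2, an adaptor that binds Grb2, went from 13.6 and 10.9 scaled FPKM to 55.1 and 56.3 at day 3 (log2 fold change 1.99, adjusted p = 2.75e-06, edgeR). Rap1gap, which inactivates the GTPase Rap1, went from 10.7 and 10.6 to 0.594 and 0.714 (log2 fold change −3.99, adjusted p = 5.62e-07, edgeR) and was at 4.97 and 3.40 at day 7. Dok6, an adaptor of Ret, was at 1.53 and 1.07 uncrushed and 0.0495 and 0 at day 3, and its relative Dok5 was at 0.0579 and 0 uncrushed and 0.515 and 0.523 at day 3, both called on few counts. In whole nerve, of 21 tested, 5 were higher and 6 lower at day 3, then 1 and 4 at day 5 and 3 and 3 at day 7. Over all genes in whole nerve 45.6%, 38.4% and 31.3% were called at these days.

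For each receptor tested in both tissues, the genes with the most similar 6 log2 fold changes against uncrushed (3 days in each tissue) were sought among 14023 genes, by the root mean square difference. These were Tmem8a (0.263) and LOC685158 (0.369) for Ngfr, Diras2 (0.243) and Mycl (0.309) for Gfra1 and Eid2 (0.123) and LOC100910506 (0.147) for Sort1. For the receptors that fell they were Col6a2 (0.167) and Apcdd1 (0.241) for Gfra2, Rxrg (0.365) and Rasef (0.377) for Gfra3, Ablim3 (0.284) and Pamr1 (0.309) for Ntrk2 and Atp8a2 (0.267) and Ifitm5 (0.315) for Ntrk3. The 6 values share their uncrushed libraries within a tissue.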

How the data were processed

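RNA from Schwann cells and whole nerve was amplified by the authors (Ovation V2 system, no molecular identifiers) and sequenced as paired-end reads. Per the study's methods, reads were aligned with STAR to Rnor_6.0, and RSEM gave the expected counts, which the authors deposited without normalization. The deposited FPKM was made by the authors in the same RSEM step, and it was divided here by the TMM factor of the 16-library fit. The deposited transcript length is RSEM's. Rounded expected counts were tested with edgeR 4.0.16 (TMM, filterByExpr, quasi-likelihood test, R 4.3.3) in 8 libraries per tissue, or in all 16 between tissues. This tested 14961, 15831 and 16829 genes. The test was also run on simulated counts with the same spread for every gene and few genes changed. These data differ from that setting, so the simulation does not show how the test behaves on them.

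Samples were grouped by their titles. The members and lists were chosen with earlier results of these data known. All 8 members are named. Of each other list those named are the 2 genes with the largest rise and the 2 with the largest fall at day 3 in Schwann cells among those called, plus the other receptors and ligands. Adaptors, partners, proteases and markers of 9 cell types were such lists. Bex1 is not in the tables. Some list members are not reported here. Cell marker genes and the genes given for the counts they make up were named after their values were seen. Replicates of a group differed beyond sampling noise (chi-square per degree of freedom 8.55 to 30.0). Floors of 3 counts cover counting error only. The 8 columns of FPKM per Schwann cell library in a module table, and a count matrix, were not used here. Alternatives were DESeq2 1.42.0, upper quartile normalization, no low-count filter, a replicate block, other sets of libraries in the fit and each library left out.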

Additional observations from a re-analysis of the deposited data

Results flagged for a closer look

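The injury effect of 5 receptors differed between Schwann cells and whole nerve in the test of the difference itself (edgeR, all 16 libraries), and the values are the log2 fold change against uncrushed in Schwann cells minus that in whole nerve. At day 3 it was −1.81 for Gfra2, −2.53 for Ntrk2, −1.69 for Ntrk3 and 0.80 for Sort1. At day 5 it was −3.11 for Gfra2, −2.72 for Gfra3, −3.73 for Ntrk2, −2.43 for Ntrk3 and 1.04 for Sort1. At day 7 it was −3.40 for Gfra2, −1.71 for Gfra3, −3.17 for Ntrk2, −2.14 for Ntrk3 and 1.17 for Sort1. Gfra3 had few counts in whole nerve (7 to 35 per library), and its call at day 7 was lost under DESeq2 and in several fits with a library left out. Whole nerve holds RNA of all cells of the nerve, so a change confined to another cell type and a difference between the preparations cannot be told apart here.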

How the results depend on the processing

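The number of receptors called against uncrushed samples was within 1.5 times the reported count under every alternative in both tissues. Between days it moved more. Leaving out 1 library gave 3 to 5 calls for Schwann cells at day 5 against day 3 (5 reported), 0 to 1 at day 7 against day 5 (1 reported), and in whole nerve 1 to 4 at day 5 against day 3 (4 reported), 3 to 5 at day 7 against day 3 (5 reported) and 0 to 3 at day 7 against day 5 (2 reported). The last was 4 with no filter on low counts and 1 with only the 4 libraries compared. The cause was not tested.

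Directions turned for uncalled differences only. In whole nerve at day 7 against uncrushed, Gfra2 was 0.015 under upper quartile normalization and 0.058 with all 16 libraries in 1 fit, and Ntrk3 was 0.020 and 0.067. With 1 library left out, the whole nerve log2 fold change against uncrushed ran for Gfra2 from −0.40 to 0.021 at day 3, from −0.32 to 0.12 at day 5 and from −0.23 to 0.19 at day 7, at day 7 for Ntrk3 from −0.28 to 0.26 and for Sort1 from −0.23 to 0.024. From day 3 to day 5 in whole nerve it ran for Gfra2 from −0.13 to 0.29 and for Ret from −0.62 to 0.038. From day 5 to day 7 there it ran for Gfra2 from −0.13 to 0.30, for Gfra3 from −0.33 to 0.45 and for Ret from −0.11 to 0.55. In Schwann cells it ran for Ntrk3 from −0.10 to 0.17 (day 3 to 5), and for Gfra2 from −0.48 to 0.073 and Ntrk2 from −0.34 to 0.12 (day 5 to 7). The difference between tissues ran for Gfra1 at day 3 from −0.11 to 0.25, for Ngfr at day 7 from −0.46 to 0.28, and for Ret from −2.74 to 1.81 at day 5 and from −2.91 to 0.073 at day 7.

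Same-numbered replicates did not deviate together in expression (28 pairs of groups, r from −0.0552 to 0.0758). The labels do not say whether they were collected or prepared together, and these correlations cannot show it. With the replicate number as a block, 4 receptors were called in Schwann cells at day 5 against day 3 (5 without the block) and 3 in whole nerve at day 7 against day 5 (2 without it).

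The count over all genes for Schwann cells at day 7 against day 5 was 291, and was 512 by DESeq2, 1048 without the filter, 179 with the replicate block, 472 with all 16 libraries and 441 with only the 4 compared. For whole nerve at day 7 against day 5 it was 1172 and without the filter 2247. With 2 libraries per group, Gfra3 and Ret, at fewer than 100 counts in most libraries, were measured least precisely.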
